A study of Homo sapiens with 27 samples.

Results

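The mRNA levels of 36 genes of sterol and fatty acid synthesis were compared between 8 groups of HT1080 cells, a human fibrosarcoma line. The genes were taken from a list of the pathway that is governed by the sterol regulatory element binding proteins (SREBPs). Members were picked by gene symbol, and TM7SF2 was left out because it is 1 of the expressed genes. Each gene was represented by the probe with the highest mean over all arrays. FDFT1 was not measured here, so 35 genes of the 18665 with a probe were described.

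The study asked how nuclear envelope transmembrane proteins (NETs) alter expression in a cell that does not normally make them. In stable HT1080 lines the whole protein was expressed: NET29 (gene TMEM120A, a fat NET, n = 4), NET39 (PLPP7, a muscle NET, n = 4) or NET47 (TM7SF2, a liver NET, n = 3), each fused to green fluorescent protein (GFP), and were set against untreated cells (n = 4). Cells transiently transfected with the soluble nucleoplasmic fragment of NET29, NET39 or NET47 fused to GFP (n = 3 each) were set against cells transfected with GFP carrying a nuclear localisation signal (NLS-GFP; n = 3). RNA of the 27 samples was read on Illumina HumanHT-12 v3 bead arrays, 1 array a sample. The stable lines had been selected with Geneticin and sorted for GFP, whereas the untreated cells carried no GFP and had seen neither step, so line and treatment history cannot be told apart. All cells were grown in serum, whose lipoproteins supply cholesterol. The fragments are called transient here as in the sample labels, although a legend of the study calls these cells stable. The 3 lines shared the untreated arrays as their control and the 3 fragments shared the NLS-GFP arrays. Untreated cells alone as the control of the lines were a choice made here. The study names NLS-GFP as the control in its results, and both NLS-GFP and untransfected cells in its methods. The counts of called genes in the lines depended on this choice, as given below.

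Cholesterol is built from acetyl-CoA through mevalonate, isoprenoid units and squalene to lanosterol, which is then trimmed to cholesterol in the endoplasmic reticulum. When sterol in that membrane runs low, SCAP carries the SREBP precursors to the Golgi, where they are cut, and the released transcription factors switch on the genes of the pathway. When sterol is high, the INSIG proteins hold SCAP back. SREBF2 encodes the form best known for sterol genes and SREBF1 the forms best known for fatty acid genes. NET47 itself is a sterol reductase of this pathway, and the lamin B receptor LBR carries a related reductase domain.

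Of the 35 measured genes, 31 lay above the background level of every array, which was the 95th percentile of probes for gene families expected to be silent. SREBF2 was above it on 16 of 27 arrays, FADS2 on 21 and ABCG1 on 24, and STARD4 on 0. Levels are log2 intensities after quantile normalisation, and a gene was called when its adjusted p was under 0.05 and its log2 fold change beyond 0.5. All 8 mesenchymal markers were above background on 3 arrays or more, as were 2 of 7 hepatocyte, 3 of 6 adipocyte and 1 of 6 skeletal muscle markers. Array medians ran from 46.9 to 58.9 intensity units in the untreated and stable groups and from 54.8 to 73.5 in the transient ones. Untreated replicates 2 and 4 and NET47 full-length replicate 3 stood apart from the other arrays of their groups on the first 2 principal components.

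The genes were uneven within the control groups. The median standard deviation (SD) of a member was 0.32 over the 4 untreated arrays, against 0.20 for all genes above background on at least 3 arrays, and 0.23 over the 3 NLS-GFP arrays, against 0.13. In the other 6 groups it lay between 0.08 and 0.18. The mean of the 16 measured sterol synthesis genes was 0.31 below the untreated mean on untreated replicate 1. NLS-GFP replicate 3 was the lowest NLS-GFP array on the mean of each of the 5 role groups.

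**Figure D1:**
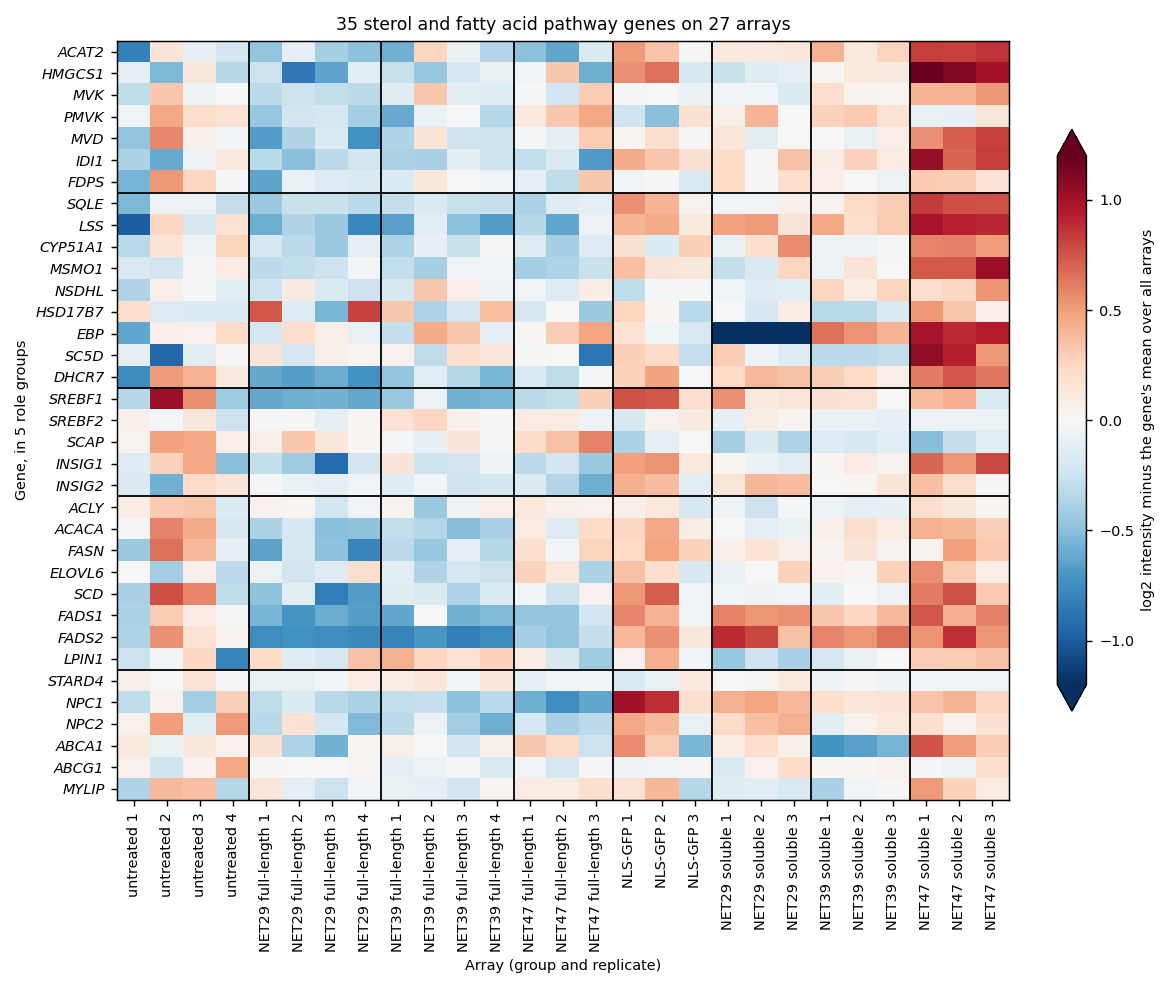
Log2 intensity of 35 genes (rows, in 5 role groups split by lines) on 27 arrays (columns, in 8 groups split by lines), each minus the gene's mean over all arrays. Red is higher and blue lower, and the colour scale ends at 1.2 in either direction; the 3 NET47 soluble arrays are red for nearly all sterol synthesis genes, and EBP is dark blue on the 3 NET29 soluble arrays.

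The soluble NET47 fragment was accompanied by higher levels of sterol synthesis genes. Of the 35 genes, 2 rose against NLS-GFP and 0 fell, and both were late sterol enzymes, EBP (1.95-fold) and MSMO1 (1.53-fold). Over all genes 0.354% were called higher in this comparison and 1.17% in either direction. All 16 measured genes of the route from mevalonate to cholesterol had a positive log2 fold change, with a median of 0.52 and a range of 0.17 to 0.96, against a median of 0.002 over all genes, of which 52.1% of those above background were positive. The unadjusted p was under 0.05 for 13 of the 16, against 9.53% of all genes.

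EBP encodes the isomerase that moves the double bond of the sterol ring after demethylation. Its log2 level was 10.02, 9.93 and 9.98 on the NET47 soluble arrays and 9.21, 8.98 and 8.85 on the NLS-GFP arrays. The groups were apart, and the difference was 0.96 ± 0.19 (SE, limma, adjusted p = 0.00678). MSMO1 encodes the oxidase that starts the removal of a pair of methyl groups from the sterol ring. Its levels were 11.60, 11.61 and 11.89 with the NET47 fragment and 11.23, 11.02 and 11.01 with NLS-GFP. These groups were apart as well, by 0.61 ± 0.12 (SE, limma, adjusted p = 0.0113). A dimmer MSMO1 probe also above background on all arrays gave 0.62 (adjusted p = 0.000526), and the remaining probe was at background throughout. MSMO1 was not called without NLS-GFP replicate 2 or 3 or NET47 soluble replicate 3 (adjusted p 0.016 to 0.11 over the 6 arrays left out in turn), whereas EBP was called in each of these 6 fits (0.0112 to 0.0443). With median scaling of the arrays MSMO1 was not called either (0.99, limma, adjusted p = 0.127), and in a fit of the compared groups alone 5 genes were called (MVD, IDI1, LSS, MSMO1 and EBP).

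The promoters of EBP and MSMO1 are shown because these genes were called, and that of HMGCS1 because it opens the mevalonate route. That of SREBF2 is shown because it held the only exact match to TCACNCCAC in the windows searched. Other forms of the sterol regulatory element were not searched for, and ABCG1, ACAT2, FASN, FDFT1 and SQLE had no window. Each promoter shown is the RefSeq window of 300 bases (GRCh38.p14) from 250 before to 50 after the annotated start, 5′ to 3′ on the gene's strand. Capitals mark CCAAT on either strand (on the other strand it reads as ATTGG), the box bound by NF-Y, and in SREBF2 also TCACNCCAC, the core of the element bound by SREBPs; no match of one overlapped the other.
MSMO1 (chr4:165327419-165327718, plus strand): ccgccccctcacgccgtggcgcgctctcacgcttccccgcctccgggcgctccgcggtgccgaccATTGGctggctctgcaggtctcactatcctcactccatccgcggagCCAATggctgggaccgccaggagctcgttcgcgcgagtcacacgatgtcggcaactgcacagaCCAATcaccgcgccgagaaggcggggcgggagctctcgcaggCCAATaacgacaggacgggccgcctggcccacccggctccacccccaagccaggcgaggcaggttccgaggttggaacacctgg
EBP (chrX:48521558-48521857, plus strand): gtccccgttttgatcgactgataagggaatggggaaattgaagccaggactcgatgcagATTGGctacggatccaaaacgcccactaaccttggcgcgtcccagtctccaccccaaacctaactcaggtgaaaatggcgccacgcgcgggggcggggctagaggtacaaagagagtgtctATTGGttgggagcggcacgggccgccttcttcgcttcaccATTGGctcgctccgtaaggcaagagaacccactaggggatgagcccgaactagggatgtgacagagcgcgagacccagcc
HMGCS1 (1 of its 2 windows, chr5:43313363-43313662, minus strand): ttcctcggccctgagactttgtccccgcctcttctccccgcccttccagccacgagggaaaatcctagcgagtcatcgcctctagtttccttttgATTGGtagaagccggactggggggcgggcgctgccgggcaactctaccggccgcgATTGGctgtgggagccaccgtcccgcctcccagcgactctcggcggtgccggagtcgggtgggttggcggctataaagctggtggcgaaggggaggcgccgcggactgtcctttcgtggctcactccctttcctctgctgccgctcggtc
SREBF2 (chr22:41832855-41833154, plus strand): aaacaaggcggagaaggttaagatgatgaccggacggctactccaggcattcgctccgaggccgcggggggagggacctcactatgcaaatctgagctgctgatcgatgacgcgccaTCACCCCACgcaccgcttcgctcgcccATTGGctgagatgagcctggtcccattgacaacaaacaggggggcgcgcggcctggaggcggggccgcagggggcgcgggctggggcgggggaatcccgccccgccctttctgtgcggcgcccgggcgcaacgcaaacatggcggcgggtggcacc

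MSMO1 held CCAAT 4 times, beginning 185, 139, 76 and 34 bases before the start, and EBP held 3, at 191, 70 and 30 bases before it. The window of HMGCS1 held 2, at 155 and 100 bases before the start, and that of SREBF2 held 1, at 106, beside TCACNCCAC at 133. Promoter windows were found for 31 of the 36 genes, 44 windows in all. CCAAT occurred in 25 of the 44 (56.8%) on either strand, against 34.6% of all 35116 windows, and the Sp1 box GGGCGG in 39 (88.6%), against 45%. The E-box CACGTG occurred in 6 (13.6%), against 7.26%, and TCACNCCAC in 1 (2.3%), against 1.13%. These matches are descriptions of the letters in a short window and not of binding.

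In the mevalonate arm, all 7 measured genes had a positive log2 fold change with the NET47 fragment, and none was called. HMGCS1, the synthase that makes the precursor of mevalonate, was at 12.08, 11.999 and 11.89 with the fragment and at 11.45, 11.56 and 10.70 with NLS-GFP. The fragment arrays were all above the control arrays, of which replicate 3 was low, and the difference of 0.75 ± 0.21 did not pass (SE, limma, adjusted p = 0.128). MVK, the mevalonate kinase, was at 8.07, 8.08 and 8.20 against 7.64, 7.66 and 7.58 (0.49, adjusted p = 0.0943). IDI1, the isomerase of the isoprenoid units, was at 8.94, 8.60 and 8.73 against 8.34, 8.22 and 8.08 (0.54, adjusted p = 0.105). ACAT2, the cytosolic acetoacetyl-CoA thiolase and the brightest gene of the arm, differed by 0.56 (adjusted p = 0.322), and MVD, the decarboxylase, by 0.61 (adjusted p = 0.17). FDPS, which joins the units to farnesyl diphosphate, differed by 0.33 and PMVK, the kinase after MVK, by 0.17. PMVK was the only one of the 7 whose arrays overlapped between the groups.

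In the squalene and sterol arm all 9 measured genes had a positive log2 fold change, the called EBP and MSMO1 among them. SQLE, the squalene epoxidase, was at 11.36, 11.29 and 11.28 with the NET47 fragment and at 11.06, 10.93 and 10.56 with NLS-GFP, a difference of 0.46 ± 0.11 (SE, limma, adjusted p = 0.0541). NSDHL, the decarboxylating dehydrogenase that works after MSMO1, was at 9.85, 9.88 and 10.17 against 9.33, 9.61 and 9.62 (0.45, adjusted p = 0.129). SC5D, the desaturase of the last steps, gave 0.76, LSS, the cyclase that makes lanosterol, 0.61, and CYP51A1, the lanosterol demethylase, 0.46, all with adjusted p above 0.05. DHCR7, the last reductase, gave 0.41 and HSD17B7, the ketosteroid reductase, 0.33. The HSD17B7 arrays overlapped, and those of the other 8 genes did not.

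Counted over arrays, 14 of the 35 genes had every NET47 soluble array above every NLS-GFP array, all of them sterol synthesis genes, against 7.6% of all genes. For 10 genes (ACAT2, HMGCS1, MVK, IDI1, SQLE, LSS, MSMO1, EBP, SC5D and DHCR7) the 3 NET47 soluble arrays were above all 24 other arrays, against 0.552% of all genes. The mean of the 7 mevalonate genes was 0.63 to 0.69 above the untreated mean on the 3 NET47 soluble arrays and 0.05 to 0.24 above it on the NLS-GFP arrays. For the 9 squalene and sterol genes these ranges were 0.76 to 0.84 and 0.08 to 0.35. The 5 sensing genes had a median log2 fold change of -0.06, the 8 fatty acid genes of 0.17 and the 6 transport genes of 0.04, with 0 called (limma) and 0, 0 and 1 at an unadjusted p under 0.05, and the difference between the roles was not tested. The 7 unfolded protein response markers all had a negative log2 fold change with the NET47 fragment (median -0.18, 0 called), and their part in the result was not tested. In bulk RNA, fewer cells with a transcript and less of it per cell cannot be told apart.

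**Figure D2:**
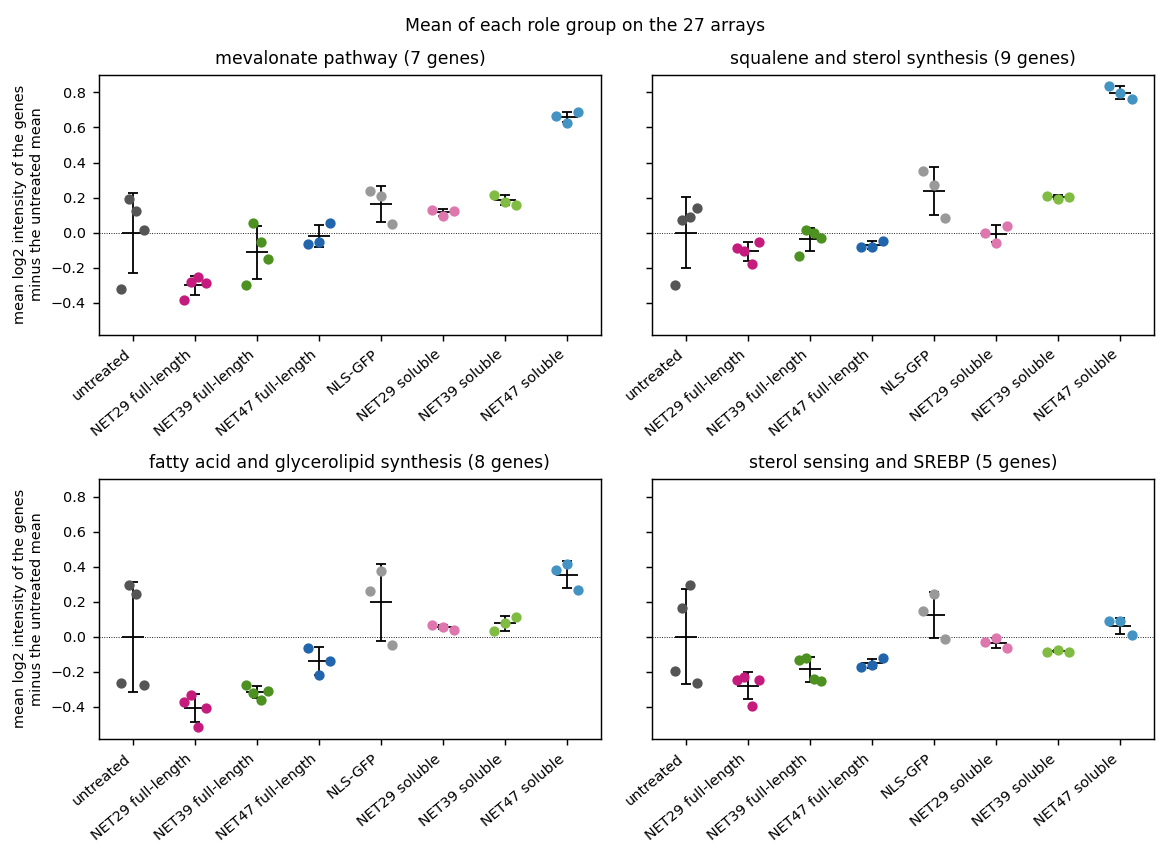
Mean log2 intensity of the genes of 4 role groups on each array, minus the untreated mean (points, 1 per array, in 8 groups), with the group mean and SD (bars). In both sterol synthesis panels the 3 NET47 soluble arrays are the highest, at 0.63 to 0.69 and at 0.76 to 0.84. In the fatty acid panel the NET29 and NET39 full-length arrays lie between -0.52 and -0.28, and the untreated arrays between -0.28 and 0.30.

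In the line with full-length NET47 the same genes lay close to their control. Against untreated cells 0 of the 35 genes were called (limma), where 1.21% of all genes were, and 5 had an unadjusted p under 0.05, against 10.2% of all genes. The 16 sterol synthesis genes had a median log2 fold change of -0.04, with 7 positive and 9 negative, and 52.1% of all genes above background were positive. MSMO1 was at 10.45, 10.50 and 10.60 in the NET47 line and at 10.69, 10.65, 10.85 and 10.97 in untreated cells, a difference of -0.28 ± 0.12 (SE, limma, adjusted p = 0.582). EBP was at 9.06, 9.33 and 9.51 in the line and at 8.42, 9.11, 9.08 and 9.26 in untreated cells, which overlapped (0.33, adjusted p = 0.784). The 95% interval for the log2 fold change of the line lay within -0.64 and 0.69 for each of the 16 genes. Without untreated replicate 1 the count of called genes was 3 (DHCR7, FADS2 and NPC1), and without untreated replicate 3 it was 2 (NPC1 and NPC2). With NLS-GFP in place of untreated cells as the control the count was 11, and the share of all genes called with that control was not computed.

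The construct was read directly in the line. TM7SF2 was at 12.35 to 12.59 in the NET47 line (mean 12.50) and at 6.43 to 6.61 in untreated cells (mean 6.55). The fitted difference was 62.0-fold (limma, adjusted p = 1.04e-22). The background level of the untreated arrays was 6.17 to 6.23, close below the untreated values, so the size of the difference is not settled. The study gives a far smaller excess over endogenous NET47 by semi-quantitative RT-PCR. With the NET47 fragment the TM7SF2 probe was at 6.59 to 6.77, against 6.47 to 6.90 with NLS-GFP (-0.03, adjusted p = 0.987), and where the probe lies relative to the fragment was not examined. LBR differed by -0.02 in the line (95% interval -0.33 to 0.30) and by 0.01 with the fragment (-0.33 to 0.34), with an adjusted p of 0.999 in both (limma). In the NET29 line TMEM120A was 2.48-fold above untreated, and with the NET29 fragment it did not pass (0.32, limma, adjusted p = 0.271). In the NET39 line the PLPP7 probe was above background on 0 of 4 arrays, so the label of the NET39 groups was not checked by it. The labels of the NET47 and NET29 fragments were not checked by their probes either.

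The difference between the NET47 line effect and the NET47 fragment effect was negative for all 16 sterol synthesis genes, with a median of -0.64, where 50.7% of all genes above background were positive. It passed for 1 of the 35, MSMO1 (-0.89 ± 0.17, SE, limma, adjusted p = 0.0114), where 0.723% of all genes were called. Of the 16, 13 had an unadjusted p under 0.05, against 8.86% of all genes. For EBP the difference was -0.63 and did not pass (adjusted p = 0.612). The lines were made stably and the fragments, per the labels, transiently, so that the form of the protein and the mode of expression cannot be told apart. Without untreated replicate 1 this count was 5 (LSS, CYP51A1, MSMO1, DHCR7 and FADS2), and without untreated replicate 2 it was 2 (IDI1 and MSMO1). With median scaling MSMO1 was not called (-1.22, limma, adjusted p = 0.367), and FADS2 was the 1 gene that was.

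**Figure D3:**
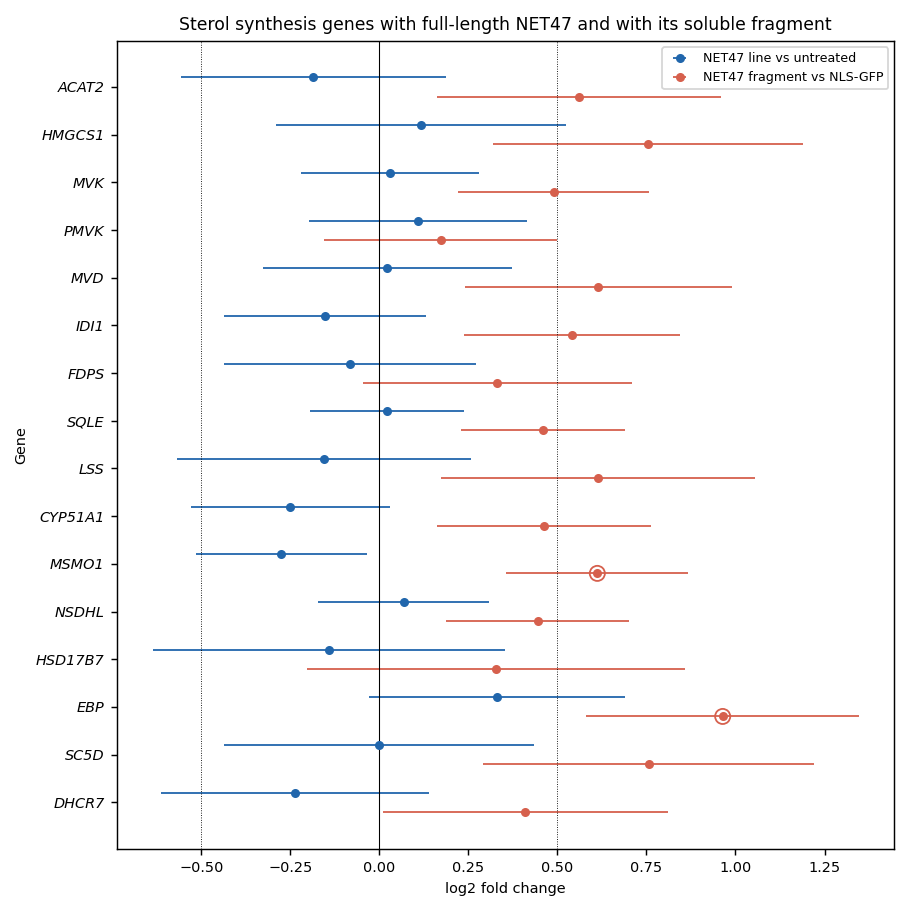
Log2 fold change with its 95% interval for 16 sterol synthesis genes in the NET47 line against untreated cells (blue) and with the NET47 soluble fragment against NLS-GFP (red), with circles for the called genes and dotted lines at the limit of 0.5 either way. All red points lie to the right of 0, from 0.17 to 0.96, and the blue points lie between -0.28 and 0.33.

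EBP also stood apart with the NET29 fragment, in the opposite direction. Its log2 level was 7.52, 7.10 and 7.22 on the NET29 soluble arrays, below the NLS-GFP arrays at 9.21, 8.98 and 8.85. The groups were 1.74 ± 0.19 apart (SE), a 3.33-fold lower level (limma, adjusted p = 7.14e-06), and EBP was called in each of the 6 fits that left out 1 array. It was the only gene of the 35 called in this comparison, where 1.3% of all genes were called. Every NET29 soluble array lay below all arrays of the other groups for EBP alone among the 35, against 1.16% of all genes. The 16 sterol synthesis genes, EBP included, had a median log2 fold change of -0.05, with 6 positive and 10 negative, where 44.5% of all genes above background were positive. All 7 unfolded protein response markers had a negative log2 fold change here (median -0.39), and their part in the result was not tested.

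With the NET39 fragment EBP was at 9.70, 9.58 and 9.45, above every NLS-GFP array, but the difference of 0.56 did not pass (limma, adjusted p = 0.306). None of the 35 genes was called with this fragment, where 0.145% of all genes were, and 5 had an unadjusted p under 0.05, against 11.6% of all genes. In the NET29 line EBP was at 8.83, 9.25, 9.11 and 8.95, within the untreated range of 8.42 to 9.26. The NET29 line effect on EBP exceeded the NET29 fragment effect by 1.80 ± 0.25 (SE, limma, adjusted p = 6.18e-05), where 5.34% of all genes were called.

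**Figure D4:**
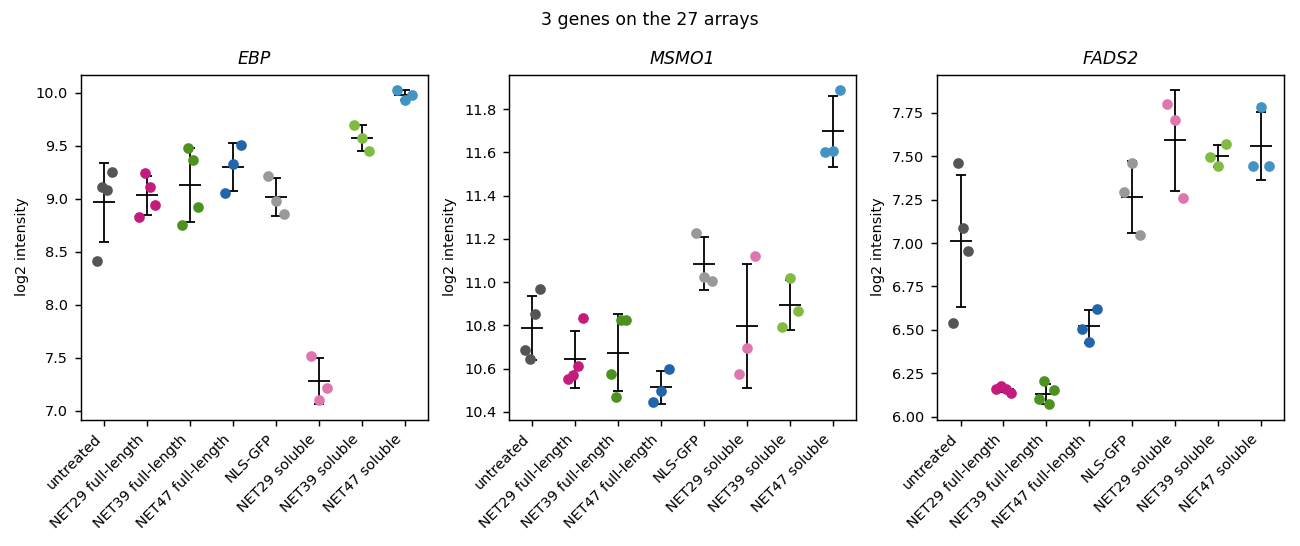
Log2 intensity of EBP, MSMO1 and FADS2 on each of 27 arrays (points) in 8 groups, with the group mean and SD (bars). EBP lies at 7.10 to 7.52 on the NET29 soluble arrays and at 9.93 to 10.02 on the NET47 soluble arrays, and FADS2 lies at 6.08 to 6.21 in the NET29 and NET39 lines.

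The genes that sense sterol and make the SREBPs number 5 here. With the settings used throughout, 0 of the 5 were called (limma) in the 12 comparisons, with at most 3 of them at an unadjusted p under 0.05 in a comparison. SREBF1 was at 7.21, 7.24, 7.25 and 7.21 in the NET29 line and at 7.48, 8.85, 8.38 and 7.39 in untreated cells. The line arrays lay below all arrays of the other groups, against 0.113% of all genes, while the untreated arrays spanned a wide range, and the difference of -0.80 ± 0.23 did not pass (SE, limma, adjusted p = 0.0598). The NET39 line was close, at 7.375, 7.75, 7.250 and 7.267 (-0.62, limma, adjusted p = 0.202). Its lowest array barely exceeded the highest NET29 line array, which was at 7.248. SREBF1 was called lower in the NET29 line without background correction, in the authors' log2 table, with cyclic loess, with dim probes left out, with the replicate block, with array quality weights and with NLS-GFP as the control, and under the last 2 of these in the NET39 line as well. A dimmer SREBF1 probe gave -0.58 (adjusted p = 0.0332), and the remaining probe was at background on all arrays. INSIG1, the sterol sensor that holds SCAP back and the brightest gene of this role, was at 11.36, 11.21 and 11.47 with the NET47 fragment and at 11.16, 11.22 and 10.80 with NLS-GFP. These arrays overlapped (0.28, adjusted p = 0.816).

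In the stable NET29 line 4 of the 8 fatty acid and glycerolipid genes fell against untreated cells and 0 rose: ACACA, FASN, FADS1 and FADS2. The 8 had a median log2 fold change of -0.62, with 2 positive and 6 negative. Minus the untreated mean, the mean of the 8 was -0.52 to -0.33 on the line arrays. On untreated replicates 1 to 4 it was -0.27, 0.30, 0.25 and -0.28, so replicates 1 and 4 lay near the line. PMVK and DHCR7 fell too, so that 6 of the 35 genes were lower, where 2.23% of all genes were called lower and 3.29% in either direction. All 7 interferon markers had a negative log2 fold change in this line (median -0.31, 1 called), as did 6 of 8 mesenchymal markers (median -0.20, 1 called), and 2 of 6 epithelial markers were called lower. Their summed log2 levels were 49.66 to 50.91, 89.66 to 89.95 and 44.10 to 44.51 in the line and 50.96 to 55.66, 90.49 to 92.25 and 44.52 to 45.99 in untreated cells, and their part in the result was not tested.

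FADS2, a desaturase of polyunsaturated fatty acids, was at 6.16, 6.18, 6.16 and 6.13 in the NET29 line and at 6.54, 7.46, 7.08 and 6.95 in untreated cells. The groups did not overlap, and the fitted difference was -0.85 ± 0.13 (SE, limma, adjusted p = 0.000196). The line was above the background level on 1 of 4 arrays, so that the other 3 give only an upper limit for its level and the size of the difference is not settled. FADS1, the partner desaturase, was at 9.09, 8.94, 9.06 and 8.99 against 9.28, 9.96, 9.76 and 9.64. These groups were apart as well (-0.64 ± 0.14, SE, adjusted p = 0.00552). ACACA, the carboxylase that commits acetyl-CoA to fatty acids, was at 9.53, 9.71, 9.41 and 9.43 against 9.89, 10.51, 10.36 and 9.71, with the nearest arrays of both groups at the same rounded level (-0.59 ± 0.12, SE, adjusted p = 0.00464). Its other probe was at background on all arrays.

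FASN, the fatty acid synthase and the brightest gene of the role, was at 12.07, 12.51, 12.22 and 11.92 in the NET29 line and at 12.26, 13.37, 13.10 and 12.61 in untreated cells. The arrays overlapped, and the difference was -0.66 ± 0.16 (SE, limma, adjusted p = 0.0198). DHCR7 was at 9.54, 9.49, 9.56 and 9.43 against 9.40, 10.66, 10.57 and 10.26, with untreated replicate 1 as low as the line (-0.72 ± 0.17, SE, adjusted p = 0.0131), and its other probe gave -0.79. PMVK was at 6.74, 6.97, 6.98 and 6.79 against 7.14, 7.66, 7.40 and 7.36 (-0.52 ± 0.14, SE, adjusted p = 0.0352). With NLS-GFP as the control 15 genes were called lower, and PMVK was not among them (-0.14, limma, adjusted p = 0.64). The share of all genes called with that control was not computed. Without untreated replicate 2 the 6 lower genes became 2 (FADS1 and FADS2), and without untreated replicate 1 they became 11. FADS2 alone was called with median scaling or in a fit of the compared groups alone, and without the 3 arrays that stood apart the count was 3 (INSIG1, ACACA and FADS2).

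In the NET39 line 3 of the 35 genes fell and 0 rose, where 2.51% of all genes were called lower and 3.72% in either direction. FADS2 was at 6.10, 6.21, 6.08 and 6.15, again above background on 1 of 4 arrays and below every untreated array (-0.88 ± 0.13, SE, limma, adjusted p = 0.000117), with the same limit on its size. ACACA was at 9.62, 9.57, 9.40 and 9.52, also below every untreated array (-0.59 ± 0.12, SE, adjusted p = 0.0044). NPC2, the soluble carrier that hands cholesterol on in the lysosome, was at 11.79, 12.04, 11.69 and 11.52 against 12.16, 12.61, 11.99 and 12.62, which overlapped (-0.58 ± 0.15, SE, adjusted p = 0.0209). DHCR7 did not pass in this line (-0.44, limma, adjusted p = 0.214). Its other probe, above background on all arrays, did pass (-0.62, adjusted p = 0.0433). Without untreated replicate 2 only FADS2 was called, and without untreated replicate 1 the count was 8. Median scaling or a fit of the compared groups alone also left FADS2 alone. With NLS-GFP as the control the count was 11, and the share of all genes called was not computed. All 7 interferon markers (median -0.35, 1 called) and 6 of 8 mesenchymal markers (median -0.28, 1 called) had a negative log2 fold change here too, with summed log2 levels of 49.11 to 50.77 and 88.95 to 89.49, and 1 of 6 epithelial markers was called lower, with 43.93 to 44.36. Their part in the result was not tested. The NET29 and NET39 values share the untreated arrays.

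In the NET47 line FADS2 was at 6.51, 6.43 and 6.62, with the highest array above the lowest untreated array (-0.49, limma, adjusted p = 0.157), and FADS1 differed by -0.39 (adjusted p = 0.432). Set directly against the NET29 line, the NET47 line had 2 of the 35 genes higher, where 1.66% of all genes were called higher and 2.28% in either direction. FASN was at 12.91, 12.68 and 12.98 in the NET47 line, above every NET29 array (0.68 ± 0.17, SE, adjusted p = 0.0415). PMVK was at 7.31, 7.52 and 7.66, above every NET29 array (0.63 ± 0.15, SE, adjusted p = 0.0215). Against the NET39 line 0 were called, where 2.37% of all genes were, with 8 at an unadjusted p under 0.05 against 13.3% of all genes. Leaving out NET29 full-length replicate 1 or 4 or NET47 full-length replicate 2 or 3 left 0 calls in the first of these comparisons, as did median scaling, and leaving out NET29 replicate 3 or NET47 replicate 1 left PMVK.

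**Figure D5:**
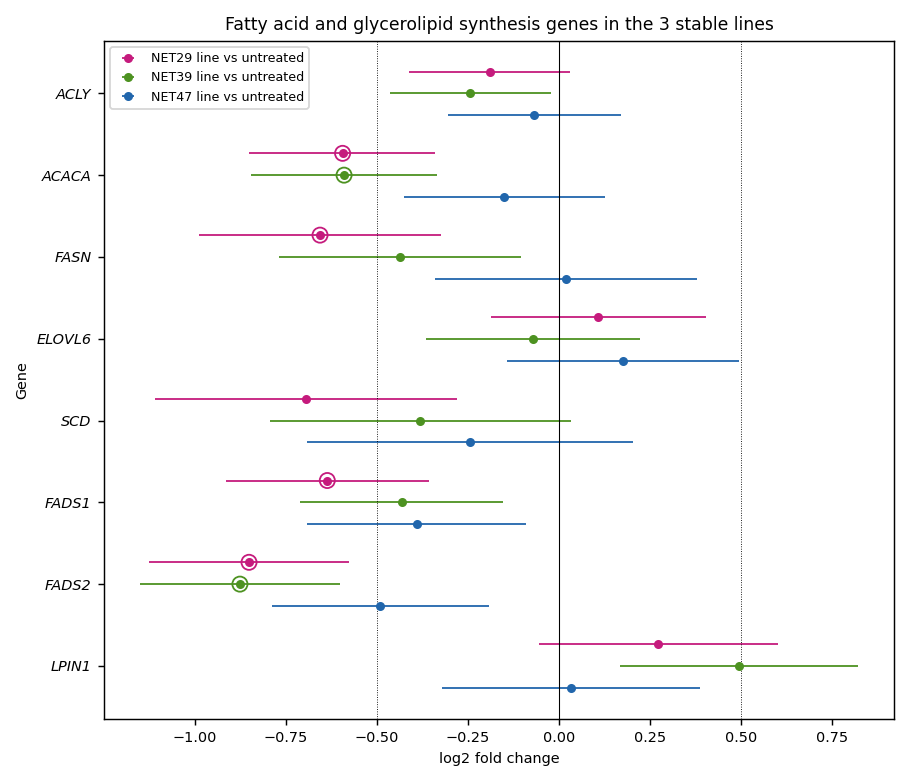
Log2 fold change against untreated cells, with its 95% interval, for the fatty acid and glycerolipid genes in the NET29, NET39 and NET47 lines, with circles for the called genes. FADS2 lies at -0.85 in the NET29 line, -0.88 in the NET39 line and -0.49 in the NET47 line.

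The line and fragment effects of NET29 and NET39 were also set against each other. For FADS2 the line effect was below the fragment effect by -1.18 for NET29 (limma, adjusted p = 0.00106) and by -1.11 for NET39 (adjusted p = 0.00312), and the line arrays at background limit both values. For PMVK these differences were -0.87 (adjusted p = 0.0191) and -0.89 (adjusted p = 0.0274). With 1 array left out in turn, the PMVK call was kept in 12 of 14 fits for NET29 and in 7 of 14 for NET39. With median scaling, or in a fit of the compared groups alone, neither PMVK difference passed. FADS1 differed by -0.87 for NET29 (adjusted p = 0.0164), and it did not pass under these settings either. With EBP this made 4 of 35 genes for NET29, where 5.34% of all genes were called, and 2 for NET39, where 2.29% were.

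Among the transport genes, NPC1, the membrane protein that moves cholesterol out of lysosomes, was lowest in the NET47 line. Its log2 level was 10.42, 10.26 and 10.38 there and 10.70, 11.05, 10.59 and 11.29 in untreated cells. Every NET47 line array lay below all arrays of the other groups, against 0.182% of all genes, and the difference of -0.55 ± 0.14 did not pass (SE, limma, adjusted p = 0.0698). Without untreated replicate 1 or 3 it passed. NPC2, the brightest transport gene, was at 11.90, 11.72 and 11.80 in the NET47 line, below every untreated array (-0.54, adjusted p = 0.157). ABCA1, the exporter of cholesterol to lipoproteins, was at 8.33, 8.39 and 8.49 with the NET39 fragment and at 9.61, 9.34 and 8.49 with NLS-GFP (-0.74, adjusted p = 0.186), and it is named here after its values were seen, as are the other uncalled genes described beyond the brightest of a role. STARD4 was at background on all arrays, and ABCG1 and MYLIP were called in 0 of the 12 comparisons.

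Transfection with NLS-GFP was itself accompanied by higher levels of some of these genes. Against untreated cells 3 of the 35 rose and 0 fell, where 0.418% of all genes were called higher and 1.11% in either direction. SQLE was at 11.06, 10.93 and 10.56 against 9.98, 10.45, 10.45 and 10.23 (0.57 ± 0.10, SE, limma, adjusted p = 0.00597). Its dimmer probe, above background on all arrays, was not called (0.36, limma, adjusted p = 0.0588), nor was the mean of its probes (0.46). IDI1 was at 8.34, 8.22 and 8.08 against 7.51, 7.30, 7.83 and 8.03 (0.55 ± 0.14, SE, adjusted p = 0.0445). For SQLE and IDI1 the arrays of the groups were apart. NPC1 was at 12.02, 11.89 and 11.21, and replicate 3 lay within the untreated range (0.80 ± 0.14, SE, adjusted p = 0.00482). Without NLS-GFP replicate 1 or 2 the count was 0, and without replicate 3 it was 6. With median scaling, or in a fit of the compared groups alone, 0 were called, and without the 3 arrays that stood apart the count was 5.

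Of 37 further genes of the pathway, 31 were measured. With the NET47 fragment 1 rose and 0 fell, and it was TMEM97, a sterol-binding membrane protein (0.62 ± 0.11, SE, limma, adjusted p = 0.00296), while the median over the 31 was near 0. In the NET47 line 0 were called. With the NET29 fragment 2 fell, ME1, the cytosolic malic enzyme (-0.71, adjusted p = 0.000737), and HACD3, a dehydratase of fatty acid elongation (-0.65, adjusted p = 0.00989). In the NET39 line 1 fell, NR1H3, which encodes the sterol-activated receptor LXR alpha (-0.55, adjusted p = 0.018), and with NLS-GFP against untreated cells 1 fell, AACS, the acetoacetyl-CoA synthetase (-0.52, adjusted p = 0.0207). In the NET29 line and with the NET39 fragment 0 were called. The line effect exceeded the fragment effect of NET29 for HACD3 (0.72, adjusted p = 0.0153) and was below it for TECR, the reductase of the same elongation cycle (-0.79, adjusted p = 0.0361). For NET39 it was below for ERG28, a protein of the sterol demethylation complex (-0.55, adjusted p = 0.0315), and NR1H3 was higher in the NET47 than in the NET39 line (0.62, adjusted p = 0.0234).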

How the data were processed

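RNA of 27 HT1080 samples in 8 groups was read on Illumina HumanHT-12 v3 arrays. The deposited intensity values of 48803 probes, which were not normalised, were the start here, and the authors' log2 table was used as an alternative. What a replicate is (culture, passage or clone) is not given in the labels used here. The study names 3 passages per stable line, whereas NET29 and NET39 lines have 4 arrays each, so some arrays may share a passage, and p-values measure only the spread between arrays, whose number limits the precision. Intensities were corrected for background by normexp with an offset of 50, then log2 was taken, and the log2 values were quantile-normalised. Group means were fitted with limma 3.58.1 in R 4.3.3 over 8 groups with 19 residual degrees of freedom and 12 comparisons, and p-values were adjusted over all probes (Benjamini-Hochberg). A gene was called at an adjusted p under 0.05 and a log2 fold change beyond 0.5. Background was the 95th percentile of 620 probes of silent gene families. Probes were named from the platform annotation: 27577 had 1 gene symbol, 13 several and 21213 none. For the NET47 fragment, arrays of the same number as NLS-GFP deviated together (r 0.42 to 0.66 over 3 pairs). In the other comparisons the same-numbered pairs did not all deviate together. Against untreated cells r was -0.08 to 0.69 for the NET29, -0.21 to 0.57 for the NET39 and -0.67 to 0.53 for the NET47 line. A fit with the replicate number as a block was run for all comparisons. The text names all called members, the brightest of a role, and for NET47 the 5 smallest p that did not pass. The members and lists were chosen with earlier results of these data known. Scripts were tested on simulated data. Figures and motif counts were made with Python 3.11.15.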

Additional observations from a re-analysis of the deposited data

Results flagged for a closer look

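In groups of 4 arrays, 45 combinations of gene and group were examined for an array far from the others. Such an array was found in 3 of the 45, all in the NET39 full-length line. About 1 in 20 combinations pass the limit by chance alone, so 3 of 45 is close to that rate. The highest array was at 9.66 log2 for FADS1 (others 9.03 to 9.13), at 7.99 for MVK (others 7.52 to 7.53) and at 10.35 for SQLE (others 10.24 to 10.25). It was replicate 2 each time, so the 3 are not separate observations.

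Effects that differed between settings, by the limma test of the difference itself, were those of the line minus those of the fragment for MSMO1 in NET47 (-0.89), for PMVK (-0.87), EBP (1.80), FADS1 (-0.87) and FADS2 (-1.18) in NET29, and for PMVK (-0.89) and FADS2 (-1.11) in NET39. The NET47 and NET29 lines differed for PMVK (0.63) and FASN (0.68). For FADS1 (-0.66, adjusted p = 0.361) and FADS2 (-0.78, adjusted p = 0.17) the NET47 line arrays and fragment arrays lay on opposite sides of their controls' means, and the difference did not pass.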

How the results depend on the processing

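Directions of the 34 results on named genes were kept in all 725 values computed under the alternatives: 600 stayed on the same side of the threshold, 109 lost the call and 16 gained it. The counts of called genes moved as follows, and the cause was not tested. The share of all genes called was computed for the main settings only. It was not computed for the alternatives or with an array left out, here or above, so these counts have no such share beside them. With median scaling the count was 1 for the NET47 fragment, 1 for the NET29 line, 1 for the NET39 line, 0 for NLS-GFP, 2 for the NET29 and 1 for the NET39 line minus fragment, and 0 for NET47 against NET29 line; this scaling put the median of all genes at 0.11 for the NET47 fragment, and the sterol synthesis median went from 0.52 to 0.87, or 0.76 relative to all genes. With only the groups compared in the fit the counts were 5 for the NET47, 2 for the NET29 and 1 for the NET39 fragment, 1 for the NET29 and 1 for the NET39 line, 0 for NLS-GFP, and 2 and 1 for the NET29 and NET39 line minus fragment. The moderated F statistic gave 6, 2 and 2 for the NET47, NET29 and NET39 fragments. With NLS-GFP as the control of the lines 11, 15 and 11 genes were called for NET47, NET29 and NET39, and the share over all genes was not computed. The mean of a gene's probes gave 1 for the NET47 line, 1 for the NET47 fragment and 1 for NET47 against NET39 line, where an absent background correction, the authors' log2 table, cyclic loess, leaving out dim probes, the replicate block and array quality weights also gave 1 (PMVK); leaving out dim probes gave 1 for the NET47 line (NPC1). Without untreated 2 and NET47 full-length 3 the counts were 2 for the NET29 and 1 for the NET39 line, 1 for the NET39 line minus fragment and 0 for NET47 against NET29 line; without untreated 4 as well, chosen after seeing the data as were the array weights, they were 3 for the NET29 line, 5 for NLS-GFP, 2 and 1 for the NET29 and NET39 line minus fragment, and 0 for NET47 against NET29 line.

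Leaving out 1 array in turn, the counts ranged from 0 to 3 for the NET47 line, 1 to 3 for the NET47 fragment, 2 to 11 for the NET29 line, 1 to 8 for the NET39 line, 1 to 2 for the NET29 fragment, 0 to 2 for the NET39 fragment, 0 to 6 for NLS-GFP, 1 to 5, 3 to 6 and 1 to 3 for the line minus fragment of NET47, NET29 and NET39, 0 to 2 for NET47 against NET29 line and 0 to 1 against NET39 line. The genes with arrays apart numbered 14 to 18 and those above all other arrays 10 to 12 for the NET47 fragment, and the sterol synthesis median 0.48 to 0.57. With the replicate block over all 8 groups EBP (limma, adjusted p = 0.00916) and MSMO1 (adjusted p = 0.00111) remained the 2 called genes for the NET47 fragment. A block limited to the NET47 fragment and NLS-GFP arrays, which was not planned, also kept both calls. There the adjusted p (limma) was 0.00917 for EBP and 0.0149 for MSMO1. With the block over all groups MVD, SREBF1 and SCD were added to the 6 for the NET29 line, PMVK was added for NET47 against NET39 line, and the called genes of the other 9 comparisons did not change. For the NET29 line an absent background correction and the authors' log2 table gave 7, cyclic loess 8, and leaving out dim probes, the block and array weights 9.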
